A study of Mus musculus with 2 samples.

Results

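The cells described here are macrophages of a healing injury that carry transcripts of Arg1, the arginase that turns arginine into ornithine, or of Mmp12, the macrophage elastase. They were chosen by transcript levels alone. A barcode with at least 500 genes, at least 1000 UMIs (transcripts counted once each) and at most 10% mitochondrial UMIs was kept, and levels were expressed as CP10K, the UMIs of a gene per 10000 UMIs of the barcode. Members had at least 20 CP10K of Tyrobp, Fcer1g and Ctss together (genes of phagocytes), under 100 CP10K of S100a8 and S100a9 together (neutrophil genes), at least 10 CP10K of Arg1 and Mmp12 together, and no UMI of the osteoclast genes Ocstamp and Calcr. This rule found 668 members among 16430 kept barcodes, 139 of the control and 529 of the irradiated library.

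Both libraries came from the site of Achilles tendon transection in the left hindlimb of male C57BL/6 mice (C57BL/6J in the protocol) aged 8 to 10 weeks, which also carried a dorsal burn of 30% of the body surface. This injury leads to traumatic heterotopic ossification, the growth of cartilage and bone in soft tissue, and the study asks how radiotherapy after the injury prevents it. Control mice had the injury and no radiation; irradiated mice also had 7 Gy in 1 dose through a 2 cm collimator over the site, and both libraries were taken 7 days after injury. The protocol lists radiation on day 1 or day 3, with 10 mice in each arm, and the design text names day 3 in a way that does not settle the meaning. How many mice went into each library is not stated. The tissue was unsorted and was digested with collagenase and dispase. With 1 library per group, treatment, mouse and library preparation cannot be told apart, no test between groups was possible, and every difference below describes these 2 libraries.

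Arginine is the branch point of macrophage metabolism in wounds. Arginase feeds ornithine to the polyamines and to proline for collagen, whereas the inducible nitric oxide synthase Nos2 spends the same arginine on nitric oxide. Arg1 is used as a sign of alternative, repair-type activation and Nos2 of inflammatory activation, although wound macrophages recruited from blood monocytes can carry both. Mmp12 cuts elastin and other matrix proteins, and F13a1 encodes the A chain of coagulation factor XIII, which crosslinks fibrin. On GRCm38 (GENCODE M21) Arg1 lies at chr10:24915221-24927484 on the minus strand, Mmp12 at chr9:7344381-7369499 on the plus strand, Nos2 at chr11:78920787-78960254 on the plus strand and F13a1 at chr13:36867178-37050244 on the minus strand.

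The phagocyte genes that chose the members were at similar levels in both libraries. With UMIs summed over members and given as CPM, UMIs per 1000000 of the sum, Fcer1g was at 2303 CPM in control and 2621 CPM in irradiated members, and Tyrobp at 1573 and 1435 CPM. A macrophage gene that the rule did not use was present as well: Csf1r, the receptor for the growth factor of macrophages, had a UMI in 83.5% and 87.3% of members. Of the other given markers, F13a1 was detected in 71.9% of control and 86.4% of irradiated members, and Nos2 in 17.3% and 47.3%. Macrophage genes were therefore present in both libraries, as the label has it, while Nos2 marked a minority of the members in each library. The T cell gene Cd3e and the neutrophil gene Ly6g were at 0 UMIs in members of both libraries, and Cd3d, of the same T cell complex, at 0 and 1 UMI. Other genes of the neutrophil list were detected: Csf3r in 19.4% and 23.8% of members, Mmp9 in 20.1% and 17.8% and Hdc in 4.32% and 10.2%. Camp had 0 and 2 UMIs and Ltf 0 and 3. The absence of Ly6g thus does not extend to the whole list.

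Control members held 1533763 UMIs and irradiated members 5637047, with medians of 9291 and 10136 UMIs and of 2868 and 2918 genes per barcode. Their mitochondrial share had a median of 3.14% and 1.63%. Doublet scores from Scrublet exceeded 0.25 in 2 control and 1 irradiated member, which were kept. Between the libraries 32 barcode sequences were shared, none of them a member in both. Transcripts of other cell types were unevenly spread: at least 10 CP10K of keratinocyte, mesenchymal, endothelial or T and NK cell genes was found in 112 of 139 control members (80.6%) and in 152 of 529 irradiated members (28.7%). The imbalance was not particular to members. Phagocytes short only of the Arg1 and Mmp12 threshold had such transcripts in 74.8% of control and 19.1% of irradiated barcodes. Their mesenchymal list summed to 2715 and 996 CPM. Genes of the mesenchymal list summed to 2536 CPM in control and 315 CPM in irradiated members, the keratinocyte list to 578 and 249 CPM, and the endothelial list to 181 and 76.3 CPM. The T and NK cell list went the other way, to 297 and 389 CPM, of which the receptor gene Il7r alone made up 295 and 387 CPM. By itself that list reached 10 CP10K in 11 control and 61 irradiated members. Without it, the other 3 lists reached 10 CP10K in 96 control (69.1%) and 31 irradiated members (5.86%), and leaving out these members was added as an alternative after the data had been seen. The part of this RNA in the gene differences was not tested, and values without the members that carry it are given where they change a statement.

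The wound macrophages made up a larger part of the irradiated library. They were 139 of 9240 kept barcodes in the control, 1.5% (95% exact binomial interval 1.27 to 1.77%), and 529 of 7190 in the irradiated library, 7.36% (6.76 to 7.99%), a ratio of 4.89 (4.05 to 5.94). All intervals here cover counting error only and say nothing of variation between mice. Phagocytes that met every other part of the rule were 24.6% of control and 39.4% of irradiated barcodes, and among them the members were 6.12% (5.17 to 7.19%) and 18.7% (17.2 to 20.1%), a ratio of 3.05 (2.52 to 3.70). A share of barcodes cannot tell more of these cells from fewer cells of other types. Both ratios were wider when members with transcripts of other cell types were left out, at 17.9 among kept barcodes and 11.2 among phagocytes, or 14.9 and 8.98 without use of the T and NK cell list. Only members were left out, 80.6% of control and 28.7% of irradiated ones (69.1% and 5.86% without that list). Wider ratios thus followed by construction. Phagocytes short of the Arg1 and Mmp12 threshold were all retained, although 74.8% of control and 19.1% of irradiated ones held such transcripts.

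**Figure D1:**
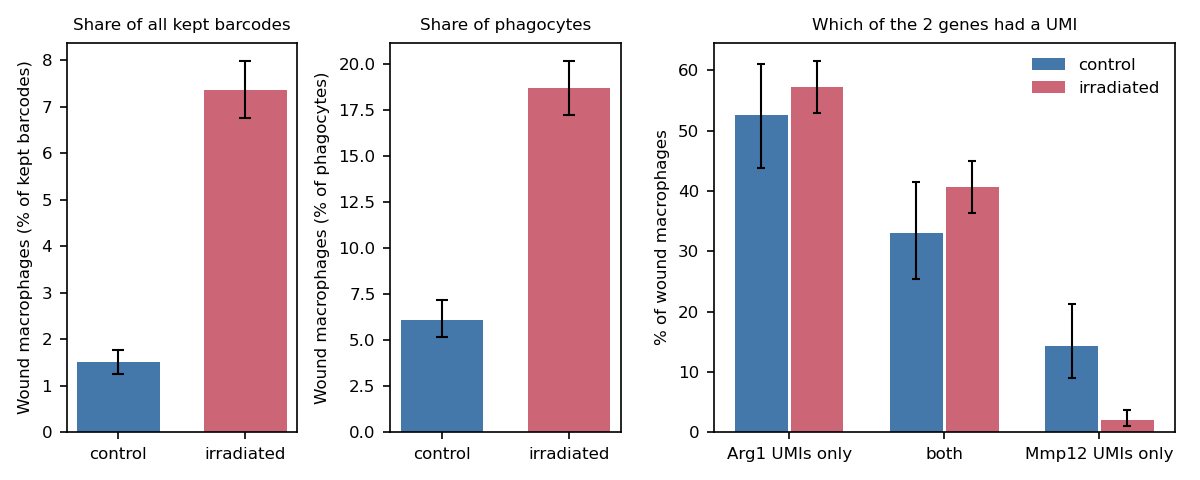
Share of wound macrophages in each library, in percent: among kept barcodes (left), among phagocytes that met the other parts of the rule (middle), and the split of members by the marker they carried (right). Bars are shares and whiskers exact 95% binomial intervals for counting error; the irradiated library is higher in the first 2 panels, 7.36% against 1.5% and 18.7% against 6.12%.

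Near the threshold of 10 CP10K the libraries did not pile up. Between 10 and 12 CP10K there were 15 control and 28 irradiated members, and between 8 and 10 CP10K there were 14 and 39 phagocytes just outside. Most phagocytes were far below it, with no UMI of either gene in 1832 control and 1840 irradiated barcodes. The members' median sum of Arg1 and Mmp12 was 24.5 CP10K for control and 40.3 CP10K for irradiated barcodes, with highest values of 308 and 366.

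Free RNA of Arg1 was low in endothelial and T cells, which should lack it. By summed UMIs Arg1 was at 2.56 CPM in control and 5.57 CPM in irradiated endothelial cells, but at 22.5 and 8.41 CPM in keratinocytes. Nos2 was at 14.3 and 16.7 CPM in endothelial cells and at 3.24 and 0 CPM in T cells, so its endothelial level need not be free RNA. After every cell was thinned to 2000 UMIs, Arg1 had a UMI in 75.9% of control and 96.6% of irradiated members, in 0.541% and 0.665% of endothelial cells (median depths of 15505 and 11605 UMIs before thinning), and in 0% and 1.56% of T cells (4299.5 and 5536.5 UMIs). Nos2 had a UMI in 11.7% of control and 33.3% of irradiated members, against 2.98% and 3.99% of endothelial cells. F13a1 had a UMI in 50.4% and 67.5% of members, against 0.541% and 0.222% of endothelial cells. All of these member shares lay above the endothelial ones. For Arg1 this followed largely from the rule, which used that gene to choose members. Nos2 and F13a1 were not used by it.

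Members differed in which marker let them in. Arg1 alone was carried by 73 of 139 control members, 52.5% (43.9 to 61.0%), and 303 of 529 irradiated members, 57.3% (52.9 to 61.5%). Both genes were found in 46 control members (33.1%) and 215 irradiated members (40.6%). Mmp12 without a UMI of Arg1 was found in 20 control members, 14.4% (9.02 to 21.3%), and 11 irradiated members, 2.08% (1.04 to 3.69%). The control group thus held a larger share of Mmp12 cells without Arg1. Of these 20 control cells, 15 also had UMIs of Dcstamp or Atp6v0d2, genes of macrophage fusion and of the osteoclast proton pump, and of the 11 irradiated cells none did. Over all members, Dcstamp or Atp6v0d2 was found in 41 control (29.5%) and 30 irradiated members (5.67%). Several differences below depend on these 41 control cells, and where they do the values without them are given as an alternative that was chosen after the data had been seen.

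**Figure D2:**
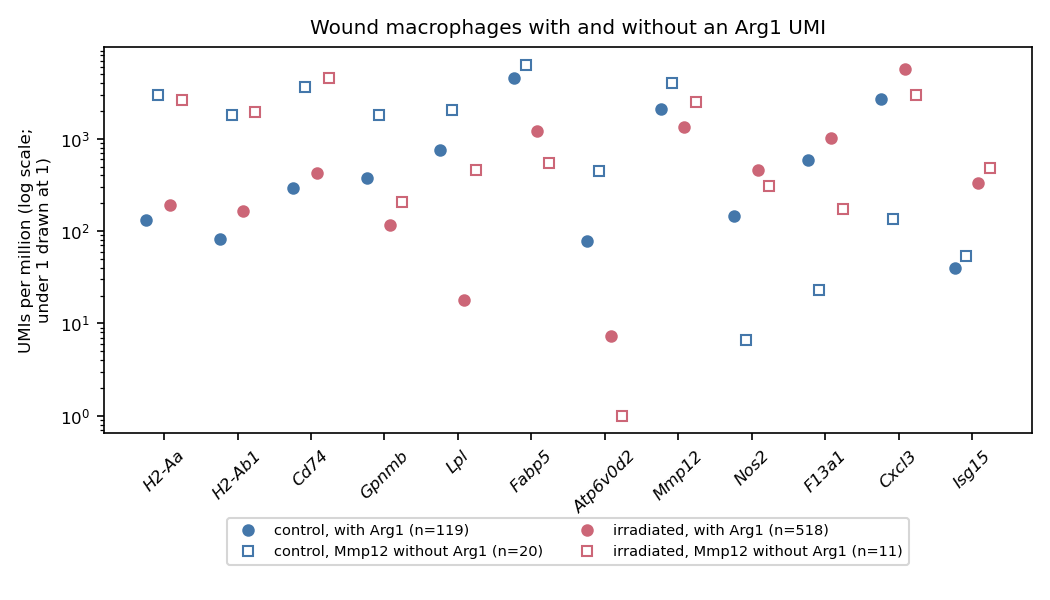
Levels of 12 genes in CPM (log axis) in members with an Arg1 UMI (119 control, 518 irradiated) and members with Mmp12 but no Arg1 UMI (20 control, 11 irradiated), with values under 1 CPM drawn at 1. The class II genes and Lpl sit far higher in the 20 control cells without Arg1 than in the 119 with it; H2-Aa is 2965 against 132 CPM and Lpl 2042 against 754 CPM.

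Of 10412 genes with at least 20 UMIs over both sums, 782 (7.51%) were higher and 1352 (13%) lower in the irradiated members by a rule of size, 2134 (20.5%) in all. That rule, a ratio of at least 1.5 with a 95% exact Poisson interval that leaves out 1, is what "higher" and "lower" mean for a gene below. Log2 ratios put the irradiated over the control level, from UMIs summed over members, and the median of all genes was -0.11. When ratios were centred on that median, 1021 genes were higher and 1024 lower (36.6% of calls higher as measured and 49.9% centred), a balance that centring on the median favours by its construction. When members with transcripts of other cell types were left out, 673 genes were lower, and without the members with Dcstamp or Atp6v0d2 801 were. In the other phagocytes, 1096 (7.25%) of 15111 genes were higher and 1869 (12.4%) lower, 2965 (19.6%) in all. Counts of called genes for a list below stand beside these shares of all genes, and no list was tested against them.

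Arg1 and Nos2, the enzymes that compete for arginine, were each at a higher level in the irradiated members. Arg1 was at 1919 CPM in control and 3900 CPM in irradiated members, a log2 ratio of 1.02 (0.97 to 1.08). It helped choose the members, and this ratio is a description. The median member had 15.9 CP10K of Arg1 among control and 33.7 among irradiated members. Nos2, which the rule did not use, was at 117 and 457 CPM, a log2 ratio of 1.96 (1.74 to 2.19). In the other phagocytes Nos2 was at 1.54 and 12 CPM, below the 14.3 and 16.7 CPM of endothelial cells. Nos2 and Arg1 met in the same barcodes. Among thinned members with an Arg1 UMI, Nos2 was found in 15 of 104 in the control, 14.4% (8.30 to 22.7%), and in 166 of 487 irradiated ones, 34.1% (29.9 to 38.5%).

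Without the members that carry Dcstamp or Atp6v0d2, which hold 22.6% of the control's Arg1 UMIs and 10.0% of its Nos2 UMIs, Arg1 was at 2688 and 3889 CPM and its ratio of 0.53 no longer met the size rule. Nos2 then was at 191 and 442 CPM, a ratio of 1.21 that did.

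Leaving out Arg1, which the rule used, 6 of 19 measured genes of arginine and polyamine metabolism, Nos2 among them, were higher and 3 lower, with a list median of 0.11. The other phagocytes had 3 of 20 higher and 3 lower. The mitochondrial arginase Arg2 was at 169 CPM in control and 377 CPM in irradiated members. Slc7a2, the transporter that brings arginine into activated macrophages, was at 28.7 and 83.7 CPM, with 31.8% of the control UMIs in a single barcode. Gch1, which makes the cofactor that Nos2 needs, was at 134 and 232 CPM. These 3 genes lie on supply and use of arginine, and Gch1 had a log2 ratio of 0.79 in the other phagocytes as well. Further genes of the list did not meet the rule. Among them were Slc7a1 at 19.6 and 17.2 CPM, Slc7a7 at 31.3 and 33.9 CPM, Ass1 at 73.0 and 99.9 CPM and Asl at 22.2 and 22.2 CPM. Downstream, Odc1, the ornithine decarboxylase that starts polyamine synthesis, was at 110 and 219 CPM, and Smox, which oxidises spermine, at 182 and 298 CPM. Later steps of polyamine synthesis did not share that direction. Sms, spermine synthase, was at 76.9 and 65.5 CPM and did not meet the rule. Srm, spermidine synthase, was at 12.4 and 4.43 CPM and Amd1, which supplies its second substrate, at 58.0 and 38.1 CPM, both lower. Oat, which leads ornithine towards proline, was lower as well, at 69.8 and 43.5 CPM.

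The matrix protease that gave the members their name went the other way from Arg1. Mmp12 was at 2493 CPM in control and 1348 CPM in irradiated members, a log2 ratio of -0.89 (-0.94 to -0.83), and is again a description since the rule used it. A UMI of Mmp12 was found in 47.5% and 42.7% of members. The sums rest on few cells: the 41 control members with Dcstamp or Atp6v0d2 held 64.9% of the control's Mmp12 UMIs, and without such members the ratio was -0.35, short of the size rule. Without the members that carried other cell types' transcripts it reversed, to 871 CPM over 27 control members and 1254 CPM over 377 irradiated members (0.53), and it was 0.071 when the T and NK cell list was not used for that choice. The direction of Mmp12 thus depended on which control members were counted.

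Of 23 measured genes of matrix proteolysis other than Mmp12, 3 were higher and 3 lower in the irradiated members, with a median of 0.06. Mmp8, a collagenase, was higher at 102 and 224 CPM, and Serpinb2, a protease inhibitor that acts on urokinase, was higher at 131 and 599 CPM. A single control barcode held 31.3% of the Serpinb2 UMIs. Mmp13 and Mmp14, which cut fibrillar collagen, were at 92.6 and 129 CPM and at 372 and 491 CPM, and neither met the rule. Ctsd, a lysosomal aspartic protease, was lower at 2822 and 1769 CPM. Mmp2 and Timp3 were also lower, at 48.9 and 2.66 CPM and at 24.8 and 1.77 CPM. Both are known from mesenchymal cells, and 44.0% and 36.8% of their control UMIs were in single barcodes.

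Inflammatory activation genes were higher almost throughout. Of 23 measured genes of that list, 20 were higher and 0 lower in the irradiated members, with a median log2 ratio of 1.26. The other phagocytes had 13 of 24 higher and 1 lower, with a median of 0.63. Il1b, the interleukin that starts much of the response to tissue damage, was at 2015 CPM in control and 4032 CPM in irradiated members (1.00, 0.95 to 1.06). Il1a, its relative that is released by damaged cells, was at 216 and 744 CPM (1.78, 1.62 to 1.95), and Tnf at 239 and 572 CPM (1.26, 1.10 to 1.42). Ptgs2, the inducible cyclooxygenase, was at 541 and 1860 CPM (1.78, 1.68 to 1.88), and Ptges, the prostaglandin E synthase, at 125 and 281 CPM (1.17, 0.95 to 1.40). After thinning to 2000 UMIs the log2 ratio of Ptges was 0.17, short of the size rule. Acod1, which makes itaconate from a Krebs cycle intermediate, was at 59.3 and 238 CPM, and Nlrp3, the inflammasome sensor, at 310 and 779 CPM.

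Feedback inhibitors of the same signals were also higher: Nfkbia at 1200 and 2153 CPM, Tnfaip3 at 232 and 570 CPM, Socs3 at 145 and 305 CPM and Il1rn, the antagonist of the interleukin-1 receptor, at 265 and 412 CPM. The 3 measured genes of the list that did not meet the rule were Cd86, a costimulator, at 263 and 350 CPM, Irf5, a transcription factor, at 95.8 and 104 CPM, and Cd14, a coreceptor for bacterial lipid, at 1322 and 1935 CPM. Saa3, an acute phase protein, had the largest ratio of the list at 62.6 and 494 CPM, with 27.8% of its irradiated UMIs in 1 barcode. Thinning of every barcode to 2000 UMIs left 14 genes higher, the lowest count of the alternatives tried, and leaving out members with Dcstamp or Atp6v0d2 left 16. Early response genes that tissue digestion can induce were partly higher too, 5 of 15 and none lower with a median of 0.31. Among them Egr1 was at 86.7 and 276 CPM and Fos, not called, at 719 and 889 CPM. Their part in the inflammatory result was not tested.

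**Figure D3:**
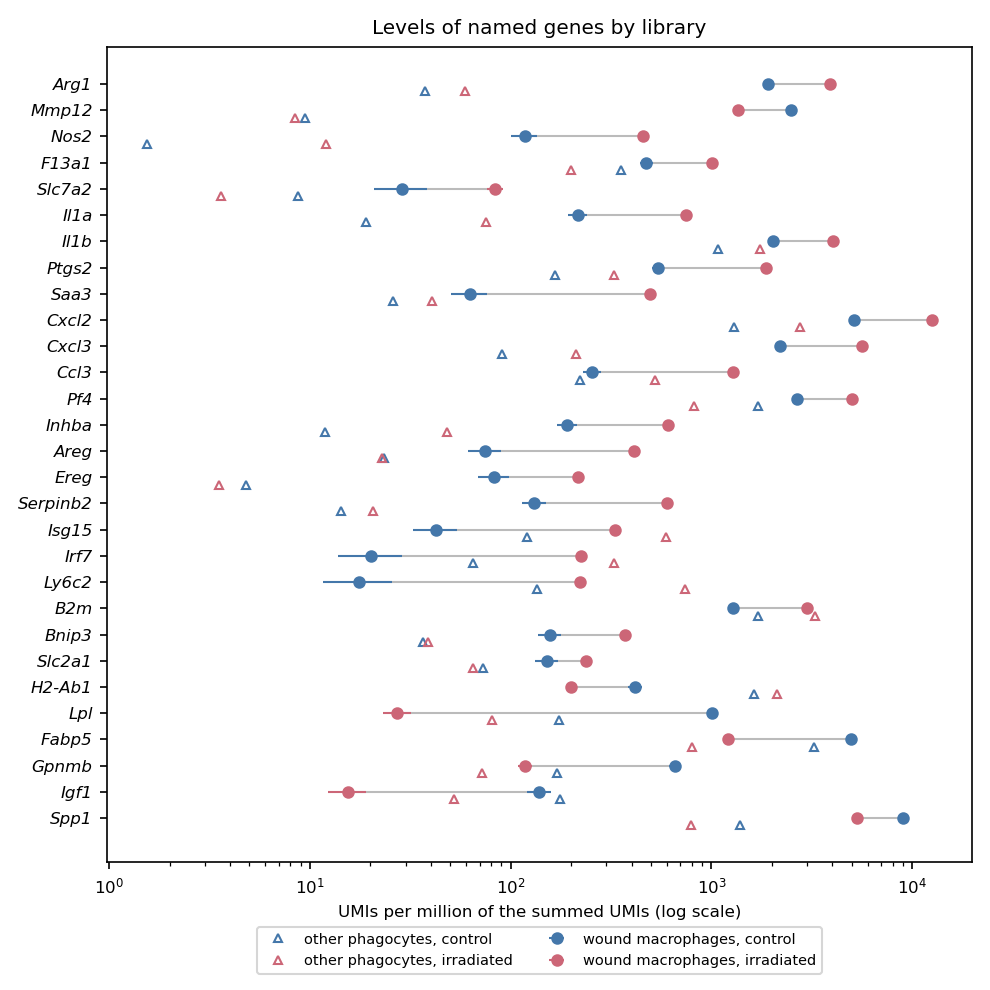
Levels of 29 genes in CPM (log axis), control and irradiated, with filled circles for wound macrophages (bars are 95% exact Poisson intervals of counting error) and triangles for the other phagocytes. Nos2, Cxcl3 and Il1a lie well above the triangles in both libraries; Nos2 is at 117 and 457 CPM in members against 1.54 and 12 CPM.

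Chemokine genes followed the inflammatory list. Of 17 measured, 12 were higher and 1 lower in the irradiated members, with a median of 1.37, against 11 higher and 4 lower of 20 in the other phagocytes, with a median of 0.86. The neutrophil attractants stood at high levels: Cxcl2 was at 5109 CPM in control and 12556 CPM in irradiated members (1.30, 1.26 to 1.33), Cxcl3 at 2188 and 5638 CPM (1.37, 1.31 to 1.42) and Cxcl1 at 411 and 1262 CPM (1.62, 1.5 to 1.74). The monocyte attractants Ccl2 and Ccl7 were at 123 and 516 CPM and at 50.9 and 250 CPM, and Ccl3 and Ccl4, attractants of monocytes and lymphocytes, at 255 and 1279 CPM and at 175 and 991 CPM. Cxcl10, an interferon-induced attractant of T cells, was at 17.6 and 119 CPM. Ccl24, an eosinophil attractant of alternative activation, was the gene that was lower, at 73.7 and 33.7 CPM, with 41.6% of control UMIs in 1 barcode. Ccl6 and Ccl9 did not meet the rule, at 850 and 797 CPM and at 1070 and 1137 CPM.

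Pf4 and Ppbp, chemokines best known from platelets, were higher in members and lower in the other phagocytes. Pf4 was at 2679 and 5017 CPM in members (0.91, 0.86 to 0.95) and at 1698 and 816 CPM in the other phagocytes (-1.06), and its ratio in members was 0.35 without those that carry Dcstamp or Atp6v0d2. Ppbp was at 102 and 260 CPM in members, with 44.6% of control UMIs in 1 barcode, and at 23.7 and 14.1 CPM in the others (-0.75).

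The promoters of Cxcl2 and Cxcl3 are shown because these 2 genes had the highest levels of the list in irradiated members and both hold a match to the kappa-B motif of NF-kappa-B in the 250 bases before the gene start. The sequences are from RefSeq (GRCm38.p6), read 5′ to 3′ on the gene's strand, with the matches in capitals. In each there are 2 overlapping matches, which end 86 bases before the start in Cxcl2 (chr5:90903649-90903898, plus strand) and 62 bases before it in Cxcl3 (chr5:90785851-90786100, plus strand).
Cxcl2: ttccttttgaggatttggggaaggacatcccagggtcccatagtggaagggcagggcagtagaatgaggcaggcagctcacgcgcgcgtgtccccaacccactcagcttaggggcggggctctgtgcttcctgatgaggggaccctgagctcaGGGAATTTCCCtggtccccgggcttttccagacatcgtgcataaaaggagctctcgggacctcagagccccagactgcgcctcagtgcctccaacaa
Cxcl3: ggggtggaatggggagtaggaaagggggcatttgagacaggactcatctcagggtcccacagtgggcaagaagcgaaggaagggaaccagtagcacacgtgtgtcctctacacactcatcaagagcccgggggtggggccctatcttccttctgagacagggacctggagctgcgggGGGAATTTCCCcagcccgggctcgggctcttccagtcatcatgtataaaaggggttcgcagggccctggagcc
The motif, searched on both strands, was in 5 of the 14 chemokine genes with a promoter entry (35.7%) and in 4 of the 8 of those that were higher. A gene counted if any of its entries had a match. The motif was in 4.46% of all 27025 genes with an entry, and in 3.90% of all 32851 promoter entries of that length. A match describes these letters and not binding.

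The interferon response was higher at nearly every gene. Of 29 measured type I interferon genes, 28 were higher and 0 lower in the irradiated members, with a median of 1.99. The other phagocytes had 29 higher of 29, with a median of 1.66. Isg15, a ubiquitin-like protein, was at 42.4 CPM in control and 332 CPM in irradiated members (2.97, 2.61 to 3.35). Irf7, the factor that amplifies interferon production, was at 20.2 and 223 CPM (3.46, 2.95 to 4.03), and Ifi205, of the family of DNA-binding interferon-induced proteins, at 9.13 and 225 CPM (4.62, 3.87 to 5.50). Antiviral effectors shared the direction. Rsad2 (viperin) was at 29.3 and 180 CPM, Ifit1, a sensor of viral RNA ends, at 14.3 and 61.7 CPM, and Oas3, which makes the activator of RNase L, at 9.78 and 51.6 CPM. In the control, 46.7% of the Rsad2 UMIs and 59.1% of those of Ifit1 were in single barcodes. Usp18, which removes Isg15 and damps the receptor, was at 2.61 and 34.9 CPM. Ifi44 was the gene that did not meet the rule, at 1.3 and 4.43 CPM.

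The level of Isg15 was not highest in the wound macrophages. It was at 121 and 591 CPM in the other phagocytes, above its 42.4 and 332 CPM in members, and of cells thinned to 2000 UMIs 10.2% of control and 28% of irradiated members had a UMI of it, against 15.7% and 44.9% of the other phagocytes, 13.5% and 39.0% of endothelial cells and 6.76% and 40.6% of T cells. Before thinning 23% and 57.8% of members had one. The irradiated shares of endothelial and T cells were thus above that of the members.

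Genes tied to interferon gamma and to class I antigen presentation went the same way. Of 18 measured interferon gamma genes 15 were higher and 1 lower, with a median of 1.15. Ly6a was at 61.9 CPM in control and 431 CPM in irradiated members, the high-affinity antibody receptor Fcgr1 at 138 and 325 CPM, and Cd274, the ligand of the T cell inhibitor PD-1, at 171 and 334 CPM. The gene that was lower, Iigp1, was at 37.8 and 1.24 CPM, with 96.6% of its control UMIs in 1 barcode. Of 18 class I genes, 14 were higher and 0 lower, with a median of 1.03. H2-K1 and H2-D1, the classical heavy chains, were at 1001 and 2088 CPM and at 1113 and 1931 CPM, and B2m, their common light chain, at 1286 and 3001 CPM. Tap1, the peptide transporter, was at 33.9 and 73.6 CPM. The heavy chain genes are near-identical in places, so reads of H2-Q6 (8.48 and 73.1 CPM) and H2-Q7 (24.1 and 250 CPM) may have been split between them.

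The promoters of Isg15, Ifit1 and Rsad2 are shown because each holds a match to the interferon-stimulated response element, searched as GAAANNGAAA on both strands and set in capitals. Here too a match describes letters and not binding. They are from RefSeq (GRCm38.p6), 250 bases before the gene start, 5′ to 3′ on the gene's strand: Isg15 at chr4:156200819-156201068 (minus strand, 3 matches, the nearest 56 bases before the start), Ifit1 at chr19:34640639-34640888 (plus, 2 matches, 75 bases) and Rsad2 at chr12:26456453-26456702 (minus, 1 match, 110 bases).
Isg15: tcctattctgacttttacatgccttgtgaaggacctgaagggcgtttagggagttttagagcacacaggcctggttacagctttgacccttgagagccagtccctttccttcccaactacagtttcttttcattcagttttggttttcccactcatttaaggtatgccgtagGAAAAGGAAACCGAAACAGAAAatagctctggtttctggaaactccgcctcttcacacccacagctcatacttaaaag
Ifit1: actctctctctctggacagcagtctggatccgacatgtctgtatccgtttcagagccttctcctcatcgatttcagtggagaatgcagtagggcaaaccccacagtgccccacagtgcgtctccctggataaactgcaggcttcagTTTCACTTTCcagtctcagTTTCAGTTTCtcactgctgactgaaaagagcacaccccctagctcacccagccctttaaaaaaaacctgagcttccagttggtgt
Rsad2: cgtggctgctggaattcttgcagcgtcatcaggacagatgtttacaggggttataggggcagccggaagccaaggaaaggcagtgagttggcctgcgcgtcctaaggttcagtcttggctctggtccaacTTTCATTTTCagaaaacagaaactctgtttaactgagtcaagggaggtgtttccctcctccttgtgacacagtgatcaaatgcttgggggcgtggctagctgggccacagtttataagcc
A match to this element was found in 11 of the 23 type I interferon genes with an entry (47.8%), all 11 of them among the 22 that were higher. Per gene it was in 3.46% of all 27025 genes with an entry, and in 2.98% of all promoter entries.

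Class II antigen presentation differed from class I. Of 6 measured class II genes, 0 were higher and 5 lower in the irradiated members, with a median of -1.07, whereas in the other phagocytes none of 11 met the rule and the median was 0.24. H2-Aa, an alpha chain of the molecule that shows peptides to helper T cells, was at 689 CPM in control and 240 CPM in irradiated members (-1.52, -1.64 to -1.40), H2-Eb1 at 464 and 167 CPM, H2-Ab1 at 418 and 200 CPM and Cd74, the invariant chain, at 953 and 514 CPM. In the other phagocytes H2-Aa was at 2860 and 3381 CPM, so members were below them in both libraries. This result rests on 20 control cells. The members with Mmp12 and no Arg1 held 84.6% of the control UMIs of H2-Aa, 87.9% of H2-Eb1 and 75.6% of Cd74. Without such members the direction turned: H2-Aa was at 132 and 190 CPM (0.52), H2-Ab1 at 82.8 and 164 CPM (0.99), H2-Eb1 at 69.8 and 124 CPM (0.82) and Cd74 at 290 and 431 CPM (0.57), and 2 genes of the list met the rule. Class II transcripts were thus not lower in the Arg1 members of the irradiated library.

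Part of the result for lipid handling and lysosomal genes rested on the control members with Dcstamp or Atp6v0d2. Of 24 measured, 8 were lower and 0 higher in the irradiated members, with a median of -0.34, against 6 lower and 1 higher in the other phagocytes. Lpl, which frees fatty acids from lipoproteins, was at 1007 CPM in control and 27.1 CPM in irradiated members (-5.21, -5.46 to -4.97). Gpnmb, a glycoprotein of lipid-laden and bone-resorbing macrophages, was at 658 and 118 CPM, Fabp5, a fatty acid carrier, at 4941 and 1213 CPM, and Spp1 (osteopontin) at 9019 and 5314 CPM. The 41 control members with Dcstamp or Atp6v0d2 held 96.7% of the control's Lpl UMIs, 86.1% of Gpnmb, 66.9% of Fabp5 and 64.9% of Spp1. Without such members Lpl was at 60.2 and 22.1 CPM (-1.45), Gpnmb at 165 and 87.0 CPM (-0.92) and Fabp5 at 2961 and 1086 CPM (-1.45), all still lower, while Spp1 at -0.30 no longer met the rule and 5 genes of the list were lower. Apoe, the lipoprotein of macrophages, at 3757 and 5150 CPM, and Trem2, a lipid receptor, at 465 and 341 CPM, met the rule in neither direction.

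Hypoxia and glycolysis genes were higher in part of the list. Of 24 measured, 12 were higher and 0 lower in irradiated members, with a median of 0.65, while in the other phagocytes none met the rule and the median was -0.03. The difference between the 2 populations was not tested. Among transport and enzyme genes, Slc2a1, the glucose transporter, was at 151 CPM in control and 238 CPM in irradiated members (0.65, 0.45 to 0.86), Gapdh at 2135 and 3423 CPM (0.68, 0.63 to 0.74) and Slc16a3, which exports lactate, at 143 and 268 CPM (0.90, 0.70 to 1.11). Among targets of the hypoxia factor outside glycolysis, Bnip3, a mitophagy receptor, was at 156 and 369 CPM (1.24, 1.04 to 1.44), Egln3, a hydroxylase that marks the hypoxia factor for breakdown, at 58.0 and 156 CPM (1.43, 1.12 to 1.76), Ero1l, which oxidises proteins in the endoplasmic reticulum, at 156 and 439 CPM (1.49, 1.30 to 1.69) and Vegfa, the vascular growth factor, at 280 and 461 CPM (0.72, 0.57 to 0.87). Without members that hold transcripts of other cell types the log2 ratio of Vegfa was 0.39. Ldha and Pkm did not meet the rule, at 629 and 765 CPM and at 1017 and 1236 CPM. The transcript of the hypoxia factor itself, Hif1a, was at 478 and 584 CPM. Without members that carry Dcstamp or Atp6v0d2, 7 genes were higher and Slc2a1, at 183 and 236 CPM (0.37), was no longer among them, and thinning also left 7.

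The promoters of Slc2a1, Bnip3 and Egln3 are shown for matches to the hypoxia response element, searched as ACGTG on both strands and set in capitals. Such a match describes letters and not binding. They are from RefSeq (GRCm38.p6), 250 bases before the gene start, 5′ to 3′ on the gene's strand: Slc2a1 at chr4:119108495-119108744 (plus strand, 31 bases before the start), Bnip3 at chr7:138909507-138909756 (minus, 2 overlapping matches, 102 bases) and Egln3 at chr12:54203875-54204124 (minus, 224 bases).
Slc2a1: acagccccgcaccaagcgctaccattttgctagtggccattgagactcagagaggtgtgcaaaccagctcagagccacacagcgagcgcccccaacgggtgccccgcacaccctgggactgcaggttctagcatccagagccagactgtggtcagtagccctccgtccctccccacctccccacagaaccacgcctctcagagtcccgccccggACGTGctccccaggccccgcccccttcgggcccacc
Bnip3: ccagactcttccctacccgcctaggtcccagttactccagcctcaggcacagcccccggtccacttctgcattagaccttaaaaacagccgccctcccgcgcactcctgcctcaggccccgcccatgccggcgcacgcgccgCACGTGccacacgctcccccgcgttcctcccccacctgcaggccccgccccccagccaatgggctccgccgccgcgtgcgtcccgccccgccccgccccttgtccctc
Egln3: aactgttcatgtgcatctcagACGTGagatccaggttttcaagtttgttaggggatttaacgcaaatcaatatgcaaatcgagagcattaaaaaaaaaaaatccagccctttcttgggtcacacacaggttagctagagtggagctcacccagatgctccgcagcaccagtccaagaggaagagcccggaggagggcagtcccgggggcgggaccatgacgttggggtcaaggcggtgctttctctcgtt
This short element was found in 14 of the 22 hypoxia and glycolysis genes with an entry (63.6%) and in 7 of the 10 of those that were higher. By the same count per gene it was in 18.5% of all 27025 genes with an entry, and in 16.6% of all promoter entries.

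**Figure D4:**
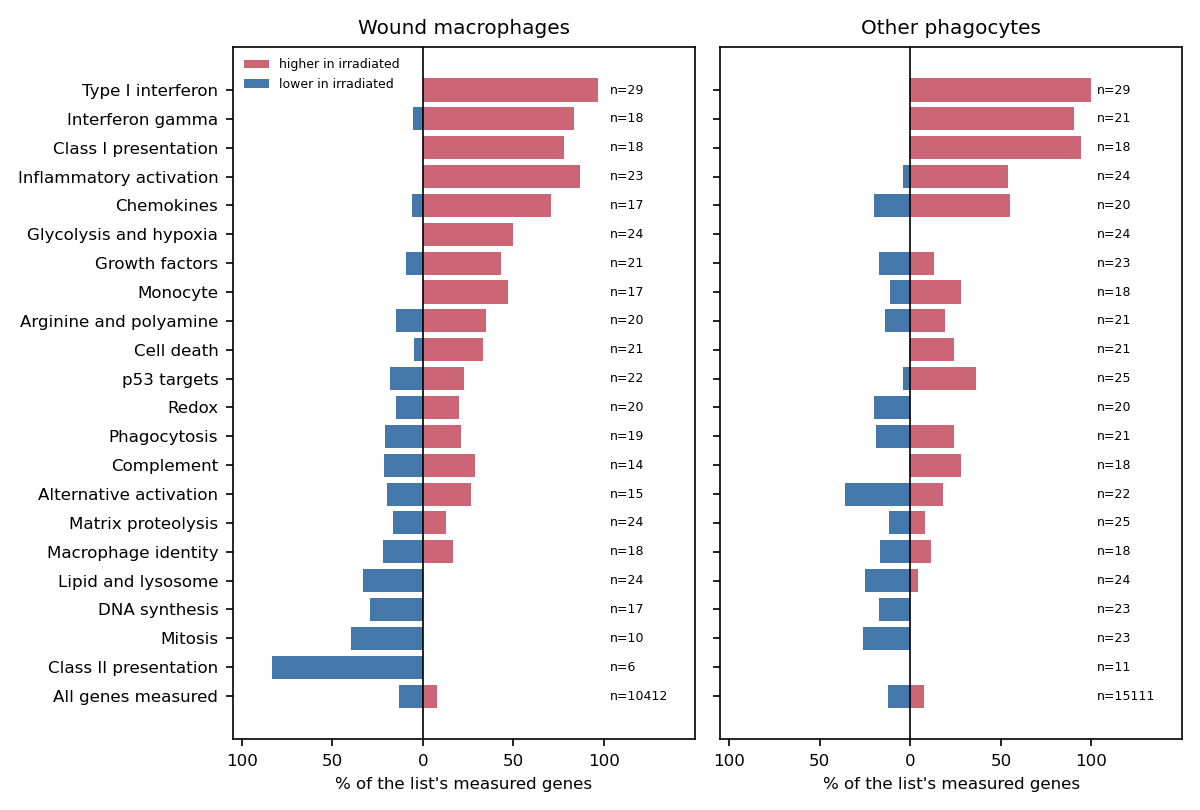
Percentage of measured genes of each list that were higher (to the right) or lower (to the left) in the irradiated library, in wound macrophages and in the other phagocytes, with the number of measured genes beside each list. Inflammatory and interferon lists lie to the right in both populations; the hypoxia and glycolysis list has 12 of 24 higher in members and none in the other phagocytes.

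Genes of monocytes, from which wound macrophages arise, were higher in part. Of 17 measured, 8 were higher and 0 lower in the irradiated members, with a median of 0.73. The other phagocytes had 5 of 18 higher and 2 lower, with a median of 0.29. Ly6c2, the marker of inflammatory monocytes, was at 17.6 CPM in control and 221 CPM in irradiated members (3.65, 3.10 to 4.26), although 1 control barcode held 63.0% of the control UMIs. Plac8, also high in monocytes, was at 80.2 and 447 CPM, and Ms4a4c at 30.6 and 252 CPM. All 3 were higher in the other phagocytes of the irradiated library too, where Ly6c2 was at 136 and 739.5 CPM (2.45). Some of the list did not move with them. Ccr2, the receptor that brings monocytes into tissue, was at 136 and 127 CPM and Chil3 at 54.8 and 63.5 CPM. F13a1 was at 473 and 1004 CPM in members (1.09, 0.97 to 1.20) but at 354 and 200 CPM in the other phagocytes (-0.83). Its ratio in members no longer met the rule without those that carry Dcstamp or Atp6v0d2 (779 and 1024 CPM, 0.39) or without those that carry other cell types' transcripts (676 and 914 CPM, 0.44). Thbs1, a matrix protein that activates TGF-beta, was at 2718 and 4493 CPM (0.73, 0.68 to 0.77), and its ratio was 0.28 without members that carry Dcstamp or Atp6v0d2. Without those members 5 genes of the list were higher.

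Macrophage identity genes were called in both directions: 3 of 18 were higher and 4 lower, with a median of 0.00, and the other phagocytes had 2 of 18 higher and 3 lower. Adgre1 (F4/80) was at 146 and 158 CPM, C1qa, a complement chain of resident macrophages, at 624 and 701 CPM and Mrc1, the mannose receptor, at 259 and 245 CPM. Maf was higher, at 149 and 281 CPM (0.47 on the log2 scale without members that carry Dcstamp or Atp6v0d2), and Lyz2, lysozyme, lower, at 11602 and 6366 CPM. Of 15 alternative activation genes other than Arg1, 4 were higher and 3 lower. Il10, an anti-inflammatory cytokine, was higher at 17.6 and 79.5 CPM, and Socs1, an inhibitor of cytokine signalling, at 17.0 and 47.9 CPM. Pparg, a lipid-sensing factor of alternative activation, was lower at 26.7 and 8.16 CPM, and Clec10a, a lectin, at 50.9 and 10.3 CPM, with 64.1% of the control UMIs of the latter in 1 barcode. Retnla, a classical gene of this programme, had 0 UMIs in members of both libraries.

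In a list of secreted growth factors, cytokines and matrix proteins, 9 of 21 measured genes were higher and 2 lower, with a median of 0.27. Il10, Il1rn and Thbs1 were among the 9 and Spp1 among the 2, and these genes are named above under other headings. Areg and Ereg, ligands of the EGF receptor, were at 74.3 CPM in control and 413 CPM in irradiated members and at 82.2 and 215 CPM, in 12.2% and 22.9% and in 7.19% and 18.3% of members. Single control barcodes held 28.1% and 42.1% of their UMIs. Inhba, which forms activin A, a TGF-beta family ligand, was at 192 and 604 CPM (1.66, 1.48 to 1.83), and Osm, oncostatin M, at 129 and 243 CPM. Without members that hold transcripts of other cell types the log2 ratio of Osm was 0.54, below the size rule. In the other phagocytes Areg stayed at 23.5 and 22.8 CPM and Ereg at 4.82 and 3.52 CPM. Igf1, a growth factor of repair, was lower in both populations, at 139 and 15.4 CPM in members and at 176 and 52.3 CPM in the others. Tgfb1 and Pdgfb did not meet the rule, at 228 and 253 CPM and at 29.3 and 25.4 CPM.

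Targets of p53, the response to DNA damage, were called in both directions in the members. Of 22 measured, 5 were higher and 4 lower, with a median of 0.08. The other phagocytes had 9 of 25 higher and 1 lower, with a median of 0.31. Cdkn1a, the cell cycle inhibitor, was at 373 CPM in control and 689 CPM in irradiated members (0.89, 0.76 to 1.01), and Mdm2, the p53 ligase, at 260 and 396 CPM (0.61, 0.45 to 0.77), a ratio that was 0.48 after thinning. Bax, a death effector, was at 282 and 254 CPM and Ccng1 at 34.6 and 37.1 CPM. The count of 5 was not stable: it was 3 with a threshold of 5 CP10K, 2 with one of 20 CP10K, 2 without members that carry Dcstamp or Atp6v0d2, and 1 after thinning, and Phlda3 (3.91 and 10.1 CPM) was then on the other side of 0 (-0.73).

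Few members showed transcripts of dividing cells. At least 2 UMIs of the mitosis list in cells thinned to 2000 UMIs were found in 4 of 137 control members, 2.92% (0.801 to 7.31%), and 7 of 504 irradiated members, 1.39% (0.560 to 2.84%), with 2 and 25 shallower members left out. Without thinning the shares were 20.9% and 16.1%. The intervals overlap widely. Without members that carry other cell types' transcripts the irradiated share was higher by 1.92 percentage points rather than lower by 1.53, and by 1.24 points, with a mitosis list median of 1.31, when the T and NK cell list was not used for that choice. Of 10 measured mitosis genes none was higher and 4 were lower, with a median of -0.86, among them Top2a at 17.6 and 1.60 CPM with 51.9% of control UMIs in 1 barcode. Mki67, a proliferation antigen, was at 8.48 and 12.9 CPM.

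Within each library, the phagocytes were placed in bins by their Arg1 level to see which genes go along with it. This is a description, since Arg1 belongs to the rule, and the highest bin, 50 CP10K and over, has only 17 control cells against 157 irradiated cells. Nos2 was at 1.08 CPM in control phagocytes without Arg1 and 405 CPM in the highest bin, and at 7.10 and 735 CPM in the irradiated library. F13a1 was at 332 and 1180 CPM among control and at 182 and 1443 CPM among irradiated phagocytes. The same order held in both libraries for Thbs1, at 1541 and 6568 CPM and at 1285 and 6078 CPM, and for Bnip3, at 33.3 and 350 CPM and at 29.6 and 541 CPM. Other genes went the opposite way. C1qa was at 1671 and 268 CPM among control and at 1873 and 352 CPM among irradiated phagocytes, and H2-Ab1 at 1866 and 48.0 CPM and at 2477 and 118 CPM. Ly6c2 was at 147 CPM in control phagocytes without Arg1 and at 0 CPM in the highest bin, and at 785 and 126 CPM in the irradiated library.

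Against the other phagocytes of the same library, 793 genes (5.79%) were higher and 1681 (12.3%) lower in control members, and 1045 (7.44%) higher and 3819 (27.2%) lower in irradiated members. Of the higher genes 478 were shared. The rule chose the members on this contrast, and nothing is read from these counts. By the smaller of the 2 ratios the leading genes were Nos2, Cxcl3, Ptges, Ereg, Mmp13, Inhba, Sema3c, Il1a, Ckap2l, Serpinb2, Slpi and Met. Slpi, an inhibitor of neutrophil elastase, was at 1003 and 1987 CPM in members against 123 and 221 CPM in the others. Met, the receptor of hepatocyte growth factor, was at 315 and 548 CPM against 39.1 and 55.3 CPM. Sema3c, a guidance molecule, was at 106 and 125 CPM in members and thus similar in both libraries. On the low side, Ccl8, a chemokine of resident macrophages, was at 46.3 and 62.8 CPM in members against 846 and 528 CPM, and Tmem176b at 30.6 and 12.8 CPM against 188 and 198 CPM.

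Among genes of at least 50 CPM in 1 library, ranked by the bound of the interval nearest to 0, the highest were the haemoglobin genes Hbb-bs, Hbb-bt, Hba-a1 and Hba-a2, followed by Ifi205, Ly6c2, Slfn4, Irf7, H2-Q7, Saa3, Ms4a4c and Isg15. Hbb-bs was at 7.82 CPM in control and 264 CPM in irradiated members, with 69.4% of the irradiated UMIs in 1 barcode, and only 3 irradiated members reached 10 CP10K of haemoglobin. The lowest were Col11a1, Sfrp2, H19, Lpl, C1qtnf3, Atp6v0d2, Col1a1, Aspn, Fbln2, Tm4sf1, Col12a1 and Postn, most of them genes of mesenchymal cells. Col11a1 was at 130 CPM in the control, with 76.5% of UMIs in 1 barcode, and had 0 UMIs in irradiated members. Col1a1, the main chain of bone and tendon collagen, was at 711 and 42.9 CPM, and at 64.2 and 22.5 CPM in the members without other cell types' transcripts. The part of mesenchymal RNA in these ranks was not tested.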

How the data were processed

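The authors deposited unnormalised UMI counts for each gene in each barcode, made from 10x Genomics 3' v3 libraries with Cell Ranger 5 against mm10 per the submitters' processing notes (5.0.1 per the file headers). Further filters by the authors are not given in the sources used here. The 32285 features were the same in both libraries, and 17705 had a UMI in members. Counts of members were summed per library and compared as CPM, with exact conditional Poisson intervals for ratios and exact Clopper-Pearson intervals for shares (95%). Genes needed 20 UMIs over both sums. Calculations used Python 3.11.15, numpy 2.4.6, scipy 1.17.1 and pandas 2.3.3, Scrublet in scanpy 1.11.5 with anndata 0.12.19, and matplotlib 3.10.9. The interval code was tested on simulated data. Barcodes with Scrublet scores above 0.25, 201 (2.18%) control and 115 (1.60%) irradiated ones, were left out in an alternative only.

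The cells, gene lists and most rules were chosen with earlier results of these data known. Named genes are the marker and rule genes, the 12 highest and 12 lowest ratios between libraries and the 12 highest and 6 lowest against other phagocytes (at least 50 CPM), the most changed genes of each list, and genes with a role in wound macrophages. "Other phagocytes" are barcodes that met every part of the rule but the Arg1 and Mmp12 threshold, 2131 control and 2306 irradiated ones. Shares were compared after thinning to 2000 UMIs. A gene at 0 UMIs was set at 3 UMIs for a bound. Cxcl11, Mx1 and Clec7a were not analysed here. Some genes that these lists count are not reported here by name.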

Additional observations from a re-analysis of the deposited data

Results flagged for a closer look

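For 7 genes of the lists the members and the other phagocytes were called in opposite directions between the libraries; none of these differences was tested. Higher in irradiated members and lower in the other phagocytes were F13a1 (log2 ratio 1.09 against -0.83), Pf4 (0.91 against -1.06), Ppbp (1.34 against -0.75) and Slc7a2, the arginine transporter (1.55 against -1.27). Lower in members and higher in the others were Pparg (-1.71 against 0.75), Mfge8, a bridge to dying cells (-2.30 against 0.81), and Iigp1, an interferon-induced GTPase (-4.93 against 1.62). Without the members that carry Dcstamp or Atp6v0d2, the ratios of F13a1 and Pf4 in members no longer met the size rule, so their opposite calls depend on those members. Single control barcodes held 31.8% of the Slc7a2 UMIs, 44.6% of those of Ppbp, 60.4% of those of Mfge8 and 96.6% of those of Iigp1.

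Cells outside the phagocyte rule also carried the markers. Among kept barcodes with under 20 CP10K of Tyrobp, Fcer1g and Ctss, Arg1 and Mmp12 reached 10 CP10K in 16 of 6137 control barcodes, 0.261% (0.149 to 0.423%), and in 36 of 3026 irradiated barcodes, 1.19% (0.835 to 1.64%).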

How the results depend on the processing

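No paired analysis was possible because there is 1 library per group, and no replicate could be left out. Of 289 counts and shares under alternatives, 254 stayed within the limits set for stability. Of the values for single genes 1120 did, 650 moved and 11 reversed, and of the list medians 348 did, 73 moved and 4 reversed. Leaving out members with transcripts of other cell types gave ratios of shares of 17.9 (kept barcodes) and 11.2 (phagocytes), 673 genes lower, 256 genes above the other phagocytes in both libraries against 478, 3 class II genes called against 5, 3 p53 targets higher against 5, a mitosis difference of 1.92 percentage points against -1.53, and Mmp12 at 0.53. Thinning to 2000 UMIs gave 442 genes higher and 406 lower, 306 genes above the other phagocytes, 7 hypoxia genes, 1 p53 target and Phlda3 at -0.73. A minimum of 100 UMIs per gene gave 670 genes lower, 3 p53 targets and a DNA synthesis median of 0.00334. A threshold of 20 CP10K gave ratios of 6.18 and 3.85 and 2 p53 targets, one of 5 CP10K 3, and the stricter cell filter 3. With equal weights of the marker strata, 0 class II genes were called, the list median was 0.47, and Cd74 (0.52), H2-Aa (0.42), H2-Ab1 (0.74) and H2-Eb1 (0.63) reversed.

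Alternatives chosen after the data had been seen were 4. When the T and NK cell list was not used to choose the members left out for transcripts of other cell types, the ratios of shares were 14.9 and 8.98, 856 genes were lower, 317 were above the other phagocytes, the mitosis difference was 1.24 points with a list median of 1.31, and Mmp12 was at 0.071. Without members with Mmp12 and no Arg1, 2 class II genes were called, the median was 0.55, and Cd74 (0.57), H2-Aa (0.52), H2-Ab1 (0.99) and H2-Eb1 (0.82) reversed. Without members with Dcstamp or Atp6v0d2, the ratios of shares were 6.54 and 4.05, 801 genes were lower, and the counts were 3 class II, 7 hypoxia, 5 lipid and lysosome, 5 monocyte and 2 p53 genes. Without members above 20000 UMIs, 3 p53 targets were higher. Where members alone were left out, a larger part of control than of irradiated members went, so the ratios of shares widened by construction. The cause of the other changes was not tested, beyond fewer cells or genes being counted. The 139 control members limit the depth: a gene of 20 UMIs over both sums has wide intervals, and single barcodes can hold most of its UMIs.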

Other observations

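Other gene lists of the wound macrophages had genes called in both directions. Of all genes measured in members, 20.5% met the size rule in either direction. Whether any of these lists differed from that share was not tested, and the genes named below are descriptions of single genes. Of 20 redox genes, 4 were higher and 3 lower in the irradiated members: Slc7a11, the cystine importer, was at 998 CPM in control and 1664 CPM in irradiated members, and Sod2, the mitochondrial superoxide dismutase, at 503 and 851 CPM, while the peroxidase Prdx1 was at 4926 and 2405 CPM and Cat at 85.4 and 42.6 CPM. The subunits of the phagocyte oxidase, such as Cybb at 726 and 721 CPM, did not meet the size rule. Of 21 cell death genes 7 were higher and 1 lower. Casp4, an inflammatory caspase, was at 110 and 266 CPM, Bcl2l11 (Bim), which promotes apoptosis, at 253 and 492 CPM and Cflar, which blocks it, at 297 and 533 CPM, and Bcl2 was lower at 21.5 and 10.3 CPM.

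Of 16 iron and heme genes 2 were higher and 3 lower. Hmox1, heme oxygenase, was at 2315 and 2394 CPM in members but at 1187 and 467 CPM in the other phagocytes. Among 25 receptors, 3 were higher and 2 lower: Tnfrsf1b, a TNF receptor, was at 254 and 452 CPM, Cxcr4, a chemokine receptor, at 241 and 388 CPM and Tlr2 at 162 and 306 CPM, while the interferon receptor chain Ifnar1 was at 80.8 and 99.0 CPM. Of 25 transcription factors 4 were higher and 2 lower. Klf6 was at 387 and 794 CPM and Klf2 at 141 and 248 CPM, and Spi1 (PU.1), which defines the myeloid lineage, was at 387 and 352 CPM.

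Of 19 genes of phagocytosis 4 were higher and 4 lower. The antibody receptor Fcgr4 was at 44.3 and 115 CPM, and Cd36, a scavenger receptor, was lower at 906 and 526 CPM. Gas6, which bridges dying cells to the receptors Mertk and Axl, was at 66.5 and 19.7 CPM, with 43.1% of control UMIs in 1 barcode, and Mertk itself was at 73.0 and 71.1 CPM. In 14 complement genes 4 were higher and 3 lower, among them Cfb, a factor of the alternative pathway, at 17.0 and 60.8 CPM and Itgax (CD11c) at 78.2 and 9.05 CPM. Without members that carry Dcstamp or Atp6v0d2, which held 93.3% of its control UMIs, Itgax was at 9.44 and 9.03 CPM.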
